A study of Mus musculus with 21 samples.

Results

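Igsf21 and the 6 contactin genes Cntn1 to Cntn6 are 7 of the 54532 genes measured by RNA-seq in stem-like cell lines of mouse glioma. They were taken by symbol from the deposited gene table, and the set was chosen because Igsf21 and Cntn4 lay near 0 in every IDH1 mutant line. Those 2 levels are therefore given as a description, as is every difference between the genotypes in the 7 genes, with no test. The tested comparisons are those between lines of 1 genotype and those of genes outside the set.

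The samples were 4 IDH1 mutant lines (PIC144-1, PIC144-3, PIC496-3 and PIC496-4) and 3 IDH1 WT lines (PC134-0, PC308-1 and PC326-1), each with 3 libraries that the labels call biological replicates, 21 in all. All lines came from brain tumours of genetically engineered mice and were grown without attachment in stem cell medium with EGF, bFGF and heparin at low oxygen. The other engineered alleles, the age of the mice and the mice behind each line are not given in the labels, and the PIC144 pair or the PIC496 pair could share an animal. The genotype belongs to the line, so the line is the replicate for a genotype (n = 4 IDH1 mutant and n = 3 IDH1 WT), represented by its mean over 3 libraries. Levels are FPKM, fragments scaled by the authors for gene length and library depth, and can be set beside each other between genes. The libraries held 15011668 to 21966351 fragments, recovered from the FPKM. All 5 markers of glioma stem-like cells were measured in every line. Sox2 was at 103 to 224 FPKM in IDH1 mutant lines, against 216 to 228 FPKM in IDH1 WT lines. Nes was at 62.5 to 80.5 FPKM in IDH1 mutant lines, against 46.9 to 52.7 FPKM in IDH1 WT lines. The lines did not overlap in Nes, as in 13.3% of all genes tested, and its difference did not pass (limma adjusted p = 0.281). Olig2 was at 199 to 419 FPKM in IDH1 mutant lines, against 239 to 303 FPKM in IDH1 WT lines. Fabp7 was at 202 to 675 FPKM in IDH1 mutant lines, against 277 to 434 FPKM in IDH1 WT lines. Msi1 was lowest of the list, at 4.61 to 7.14 FPKM in IDH1 mutant lines, against 6.95 to 9.48 FPKM in IDH1 WT lines. Its difference did not pass (limma adjusted p = 0.373).

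Contactins are adhesion proteins of the immunoglobulin superfamily, built of immunoglobulin and fibronectin type III domains and held at the outer cell surface by a GPI anchor. They bind partners on the same or the facing cell, among them the contactin-associated proteins, the L1 family, amyloid precursor protein and receptor tyrosine phosphatases, and take part in axon growth, nodes of Ranvier and synapse formation. IGSF21 is a synaptic immunoglobulin protein that binds neurexin-2 alpha and promotes inhibitory presynaptic differentiation. In the brain these genes are best known from neurons, and Cntn1 is also made by cells of the oligodendrocyte lineage.

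Promoters are shown for the pair of genes that chose the set and for Cntn1, the most abundant contactin, because they differ in CG content. Each is 300 bases from 250 before to 50 after a RefSeq start (GRCm38.p6), written 5′ to 3′ on the gene's strand, with each CG dinucleotide, which reads the same on both strands, in capitals. The Igsf21 window lies on the minus strand at chr4:140246762-140247061, a Cntn4 window on the plus strand at chr6:106118692-106118991, and a Cntn1 window on the plus strand at chr15:92050915-92051214.
Igsf21: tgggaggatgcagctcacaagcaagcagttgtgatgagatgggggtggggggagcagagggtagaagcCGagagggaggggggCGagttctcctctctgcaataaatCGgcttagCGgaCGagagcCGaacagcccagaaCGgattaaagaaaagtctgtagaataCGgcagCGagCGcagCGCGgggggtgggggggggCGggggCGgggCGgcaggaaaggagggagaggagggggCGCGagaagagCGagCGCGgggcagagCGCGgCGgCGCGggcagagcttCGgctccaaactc
Cntn4: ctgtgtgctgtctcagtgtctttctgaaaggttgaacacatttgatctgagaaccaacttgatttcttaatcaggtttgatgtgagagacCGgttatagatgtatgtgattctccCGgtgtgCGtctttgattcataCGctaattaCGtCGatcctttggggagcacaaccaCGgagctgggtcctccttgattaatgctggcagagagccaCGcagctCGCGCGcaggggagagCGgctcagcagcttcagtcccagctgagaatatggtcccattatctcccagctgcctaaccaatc
Cntn1: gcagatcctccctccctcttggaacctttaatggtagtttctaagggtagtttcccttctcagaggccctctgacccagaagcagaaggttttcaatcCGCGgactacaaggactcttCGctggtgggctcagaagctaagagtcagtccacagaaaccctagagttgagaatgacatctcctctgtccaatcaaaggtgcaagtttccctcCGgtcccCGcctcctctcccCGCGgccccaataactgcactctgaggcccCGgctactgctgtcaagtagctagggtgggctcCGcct
The Igsf21 window held 26 CG, and 16.9% of the 32851 promoters of the same length in the table held as many or more. The Cntn4 window held 12 (39.6% of promoters held as many or more) and the Cntn1 window 9 (45.8%), where the median of all promoters was 7. All 7 genes had an entry, 11 in all: the other windows held 26 in both entries of Cntn5, 13 in Cntn2, 4 in Cntn6, 0 in Cntn3, 4 in the other Cntn4 entry, and 5 and 4 in the other Cntn1 entries. Cntn5 was at background in all 7 lines. Whether CG content plays a part in the level of any of these genes was not tested. Cntn4 has 13 transcripts in the GENCODE annotation of GRCm38, with starts spread over 1016493 bases, against 1 transcript for Igsf21, and the Cntn4 window shown starts from a site 441282 bases into the gene. The Cntn3 window starts from a site 108434 bases into the gene, and the other Cntn1 windows from sites 76963 and 110192 bases in. The values are per gene, so the start in use is not known.

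Igsf21 was close to absent in IDH1 mutant lines and well measured in IDH1 WT lines. The gene (ENSMUSG00000040972) is on the minus strand of chromosome 4, from 140026846 to 140246784, in GRCm38 coordinates as in the table. The 3 libraries of PIC144-1 had 0, 0.0874 and 0.156 FPKM, those of PIC496-3 had 0.0633, 0.0530 and 0.0620 FPKM, and all 6 libraries of PIC144-3 and PIC496-4 had 0. Those of PC134-0 had 11.4, 9.89 and 8.76 FPKM, those of PC308-1 had 7.07, 5.82 and 6.33 FPKM, and those of PC326-1 had 7.26, 5.99 and 7.10 FPKM. No IDH1 mutant library came near an IDH1 WT library: the highest of the 12 had 0.156 FPKM and the lowest of the 9 had 5.82 FPKM.

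The IDH1 mutant lines averaged 0.0351 ± 0.0415 FPKM (SD, n = 4) and the IDH1 WT lines 7.73 ± 1.97 FPKM (SD, n = 3), so the mean in IDH1 mutant lines was 0.454% of that in IDH1 WT lines. Behind these means stand 14 fragments in 12 IDH1 mutant libraries and 2336 fragments in 9 IDH1 WT libraries. In PIC144-3 and PIC496-4 a count of 0 over 3 libraries allows a level of up to 0.0271 and 0.0285 FPKM (3 fragments, counting error only). On the log2(FPKM + 0.5) scale, which understates differences of genes near 0, the difference was -3.92 (SE 0.21, limma). In bulk RNA, fewer cells that express a gene and less RNA per cell cannot be told apart.

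Within the IDH1 WT group, Igsf21 was highest in PC134-0 at 10.0009 ± 1.30 FPKM, followed by PC326-1 at 6.78 ± 0.691 and PC308-1 at 6.41 ± 0.625 FPKM (SD, 3 libraries each). PC134-0 was 1.47 times PC326-1, and their libraries did not overlap. The libraries of PC326-1 and PC308-1 overlapped. The lines differed by the limma F test over the 9 libraries (adjusted p = 0.00222), a call that ended without PC134-0 (adjusted p = 0.566). At this threshold 56.8% of the 14287 genes tested differed between the IDH1 WT lines, so such a difference is common. The F tests take the libraries of a line as replicates, with no word in the labels on separate cultures, so the p-values measure the spread between libraries, which may be technical.

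Cntn4 encodes contactin 4, a partner of amyloid precursor protein and of the L1 family member CHL1 in axon growth. The gene (ENSMUSG00000064293) lies on chromosome 6 from 105677660 to 106699310. The libraries had 0.0568, 0.102 and 0.0581 FPKM in PIC144-1, 0.187, 0.183 and 0.362 FPKM in PIC144-3, 0.0148, 0.00618 and 0 FPKM in PIC496-3, and 0, 0.00646 and 0.00639 FPKM in PIC496-4. They had 1.69, 1.74 and 1.44 FPKM in PC134-0, 2.52, 2.52 and 1.64 FPKM in PC308-1, and 1.42, 1.41 and 1.25 FPKM in PC326-1. The genotypes did not overlap in any library, and the PIC496 lines stood at 3 and 2 fragments in all, below the PIC144 lines at 31 and 120 fragments.

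Cntn4 averaged 0.0819 ± 0.112 FPKM in IDH1 mutant lines (SD, n = 4), against 1.74 ± 0.445 FPKM in IDH1 WT lines (SD, n = 3), a log2 difference of -1.94 (SE 0.24, limma). PIC144-3 had 3.37 times the level of PIC144-1, and the libraries of these lines did not overlap. Cntn4 was below the filter for a test between the IDH1 mutant lines. The IDH1 WT lines averaged 2.23 ± 0.506 FPKM in PC308-1, 1.62 ± 0.163 FPKM in PC134-0 and 1.36 ± 0.0965 FPKM in PC326-1 (SD, 3 libraries each), and the limma F test between them gave an adjusted p of 0.0251. This call ended without PC308-1 (adjusted p = 0.316), without PC326-1 (0.106), without the first library of each line (0.211), without the second (0.157), with quantile normalization (0.0518) and with no filter (0.0552). The libraries of PC308-1 and PC134-0 overlapped.

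Cntn6 showed the same split at a level near the limit of detection. It encodes contactin 6, a ligand of Notch1 and a partner of CHL1 in the developing cortex. The gene (ENSMUSG00000030092) lies beside Cntn4 on chromosome 6, from 104492790 to 104863406. The 12 IDH1 mutant libraries had a median of 0, with 7 of them at 0 and the highest at 0.0649 FPKM. The 9 IDH1 WT libraries lay between 0.109 FPKM in PC326-1 and 0.642 FPKM in PC134-0, with 12 to 77 fragments each, and none was at 0. No IDH1 mutant library reached the lowest IDH1 WT library. The means were 0.0154 ± 0.0112 FPKM in IDH1 mutant lines (SD, n = 4), against 0.269 ± 0.132 FPKM in IDH1 WT lines (SD, n = 3), from 22 fragments in IDH1 mutant libraries and 270 in IDH1 WT libraries. PC134-0 was the highest line at 0.421 FPKM, 2.04 times PC308-1. This fold rests largely on 1 PC134-0 library at 0.642 FPKM, the others being at 0.309 and 0.311 FPKM. The highest PC308-1 library was at 0.309 FPKM, and the libraries of PC308-1 and PC326-1 overlapped.

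Of the 7 genes, 3 had line means that did not overlap between genotypes, Igsf21, Cntn4 and Cntn6, all lower in IDH1 mutant lines. Among all 13379 genes tested, 6.43% were lower in IDH1 mutant lines with no overlap, and the choice of the set fixed this outcome for Igsf21 and Cntn4. Only 4 of the 7 genes passed the filter of at least 0.5 FPKM in 3 lines: Igsf21 and Cntn4 passed through the IDH1 WT lines alone, Cntn3 through 3 lines of both genotypes and Cntn1 through all 7. Cntn2, Cntn5 and Cntn6 were below it. Across the transcriptome 0.120% of the genes tested (16 of 13379) passed the limma test between genotypes at an adjusted p under 0.05, and 0.0972% passed as lower in IDH1 mutant lines. Between lines of 1 genotype, the F test called both genes that could be tested among IDH1 mutant lines (Cntn1 and Cntn3) and all 4 among IDH1 WT lines (Igsf21, Cntn1, Cntn3 and Cntn4), where 78.6% of all genes tested were called between IDH1 mutant lines and 56.8% between IDH1 WT lines.

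**Figure D1:**
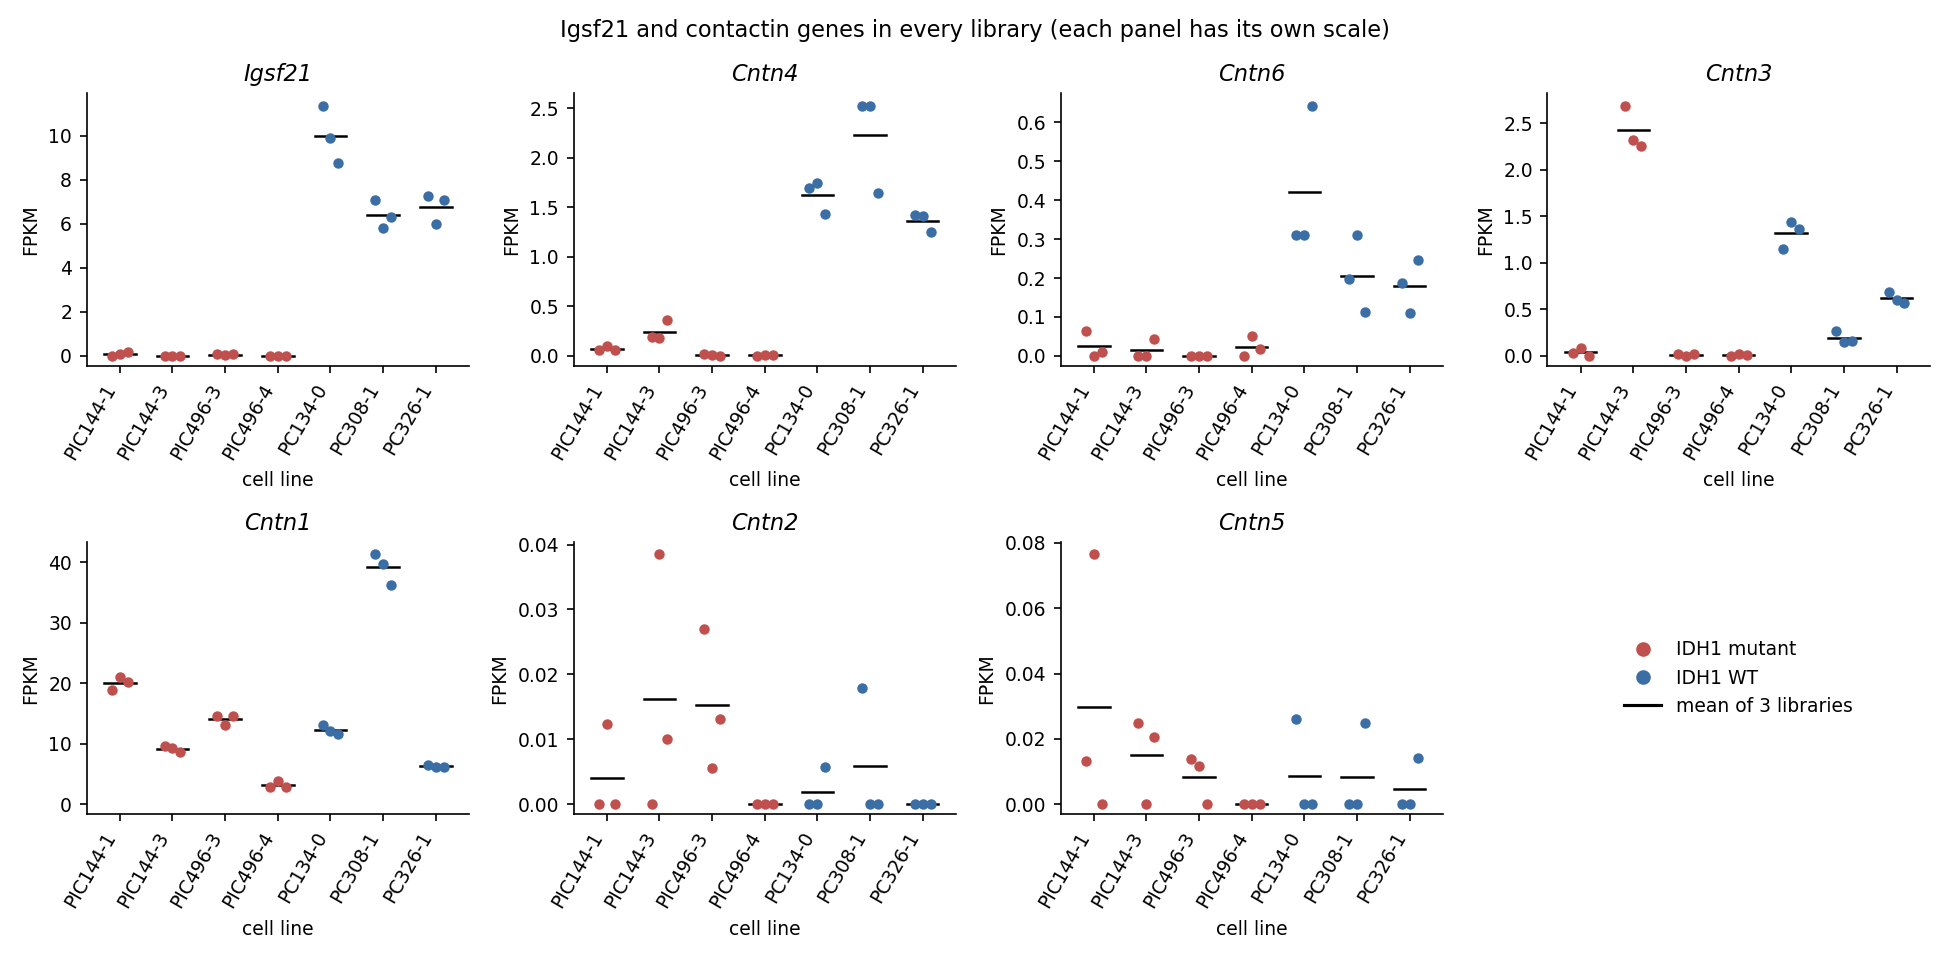
Level of Igsf21 and the 6 contactin genes in FPKM in each of the 21 libraries, by cell line, with the IDH1 mutant lines on the left; points are libraries, bars are the mean of 3 libraries, and each panel has its own linear scale. Igsf21, Cntn4 and Cntn6 are low in all 4 IDH1 mutant lines, Cntn3 is highest in the IDH1 mutant line PIC144-3 at 2.42 FPKM, and Cntn1 is highest in the IDH1 WT line PC308-1 at 39.1 FPKM.

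Cntn3 differed widely between lines of each genotype, and the genotypes overlapped. It encodes contactin 3, which binds the receptor tyrosine phosphatase PTPRG, and lies on chromosome 6 (ENSMUSG00000030075, from 102162655 to 102573101). The libraries had 2.69, 2.32 and 2.26 FPKM in the IDH1 mutant line PIC144-3, and at most 0.0857 FPKM in the 9 libraries of PIC144-1, PIC496-3 and PIC496-4. They had 1.15, 1.44 and 1.37 FPKM in PC134-0, 0.272, 0.149 and 0.160 FPKM in PC308-1, and 0.685, 0.605 and 0.569 FPKM in PC326-1. An IDH1 mutant line thus had the highest level of all lines, 1.83 times PC134-0, while the other IDH1 mutant lines were the lowest 3 of the 7.

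In fragments, PIC144-3 had 908 for Cntn3 over its 3 libraries, against 13 in PIC144-1 and 4 in each PIC496 line. Of the 13 in PIC144-1, 10 came from 1 library, so no fold between the PIC144 lines is given. The IDH1 mutant lines differed by the limma F test over 12 libraries (adjusted p = 8.04e-09), as did the IDH1 WT lines (adjusted p = 7.16e-05). From PC308-1 upward, no libraries of neighbouring lines overlapped in Cntn3, and below it the 3 lowest lines did. The genotype means were 0.621 ± 1.201 FPKM for IDH1 mutant (SD, n = 4) and 0.712 ± 0.569 FPKM for IDH1 WT (SD, n = 3), a log2 difference of -0.49 with a 95% interval of -2.06 to 1.08. It was -1.39 with a pseudocount of 0.1, -1.11 on the TPM scale and -1.11 without PIC144-3. In 2 alternatives added after the data had been seen, it was -3.08 in limma voom on recovered fragments and 0.16 without both PIC496 lines.

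Cntn1 was the main contactin of every line and also overlapped between genotypes. It encodes contactin 1, which forms the paranodal junction with contactin-associated protein 1 and binds the phosphatase PTPRZ1 and tenascins on glia. The gene (ENSMUSG00000055022) lies on chromosome 15 from 92051165 to 92341967. The libraries had 18.9, 20.96 and 20.2 FPKM in PIC144-1, 9.61, 9.36 and 8.63 FPKM in PIC144-3, 14.6, 13.1 and 14.5 FPKM in PIC496-3, and 2.82, 3.77 and 2.94 FPKM in PIC496-4. They had 13.02, 12.2 and 11.6 FPKM in PC134-0, 41.4, 39.8 and 36.2 FPKM in PC308-1, and 6.55, 6.18 and 6.13 FPKM in PC326-1. The lines of the genotypes interleaved, with the lowest line IDH1 mutant (PIC496-4) and the highest IDH1 WT (PC308-1).

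The order of the line means was PIC496-4 (3.18 ± 0.519 FPKM, SD, 3 libraries), PC326-1 (6.28 ± 0.230), PIC144-3 (9.1999 ± 0.511), PC134-0 (12.3 ± 0.726), PIC496-3 (14.1 ± 0.847), PIC144-1 (20.01 ± 1.06) and PC308-1 (39.1 ± 2.65). In none of the 6 neighbouring pairs in this order did the libraries overlap, and the highest line had 12.3 times the lowest. The spread within each genotype was wide. PIC144-1 had 6.29 times the level of PIC496-4 among the IDH1 mutant lines, and PC308-1 had 6.23 times the level of PC326-1 among the IDH1 WT lines. The limma F test gave an adjusted p of 3.61e-09 between the IDH1 mutant lines and 2.01e-08 between the IDH1 WT lines.

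Both pairs of like-numbered lines differed in Cntn1 as well: PIC144-1 had 2.17 times PIC144-3, and PIC496-3 had 4.43 times PIC496-4. At the threshold used, 78.6% of the 14604 genes tested differed between the IDH1 mutant lines, so these calls are common too. The genotype means were 11.6 ± 7.15 FPKM for IDH1 mutant (SD, n = 4) and 19.2 ± 17.5 FPKM for IDH1 WT (SD, n = 3). The log2 difference of -0.57 had a 95% interval of -2.25 to 1.11, and without PC308-1 it was 0.13.

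Cntn2, whose product contactin 2 (TAG-1) gathers potassium channels beside the node of Ranvier, and Cntn5, which encodes a contactin of the auditory and visual pathways, were at background. Cntn2 (ENSMUSG00000053024, chromosome 1 from 132509427 to 132543256) had 17 fragments in the 12 IDH1 mutant libraries and 4 in the 9 IDH1 WT libraries, with at most 0.0385 FPKM in a library. Cntn5 (ENSMUSG00000039488, chromosome 9 from 9660891 to 10904775) had 13 fragments in IDH1 mutant libraries and 5 in IDH1 WT libraries, with at most 0.0764 FPKM in a library. A difference between lines in these genes was not detectable at this depth, and neither gene was tested.

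The sum of the 6 contactin genes, in FPKM, was 20.2, 11.9, 14.1 and 3.22 in PIC144-1, PIC144-3, PIC496-3 and PIC496-4, and 15.6, 41.8 and 8.45 in PC134-0, PC308-1 and PC326-1. Cntn1 made up 99.2%, 99.7% and 98.8% of it in PIC144-1, PIC496-3 and PIC496-4, and 77.2% in PIC144-3, where Cntn3 gave 20.3%. In the IDH1 WT lines Cntn1 made up 78.4% in PC134-0, 93.7% in PC308-1 and 74.4% in PC326-1. The share of Cntn4 was 0.0495% to 2.05% in IDH1 mutant lines and 5.33% to 16.1% in IDH1 WT lines. The contactin mRNA of 3 IDH1 mutant lines was thus nearly all Cntn1, whereas the other 4 lines also held other contactins. The low share of Cntn4 in IDH1 mutant lines follows from the choice of the set.

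**Figure D2:**
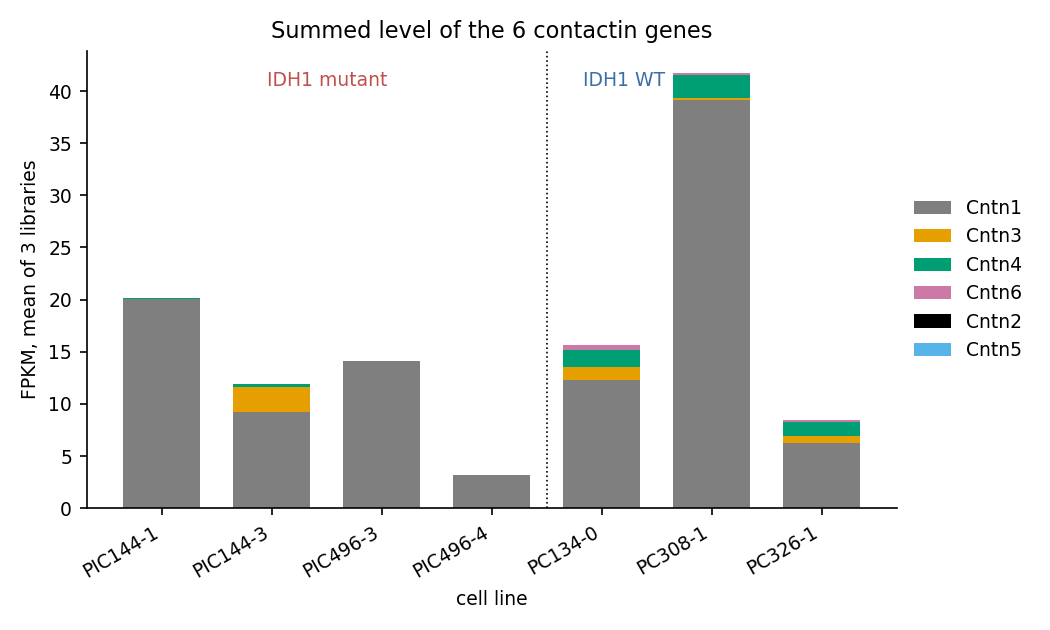
Summed level of the 6 contactin genes in FPKM (means of 3 libraries, stacked by gene) in each cell line, IDH1 mutant lines left of the dotted line and IDH1 WT lines right of it. Cntn1 is the largest part in every line, Cntn3 is visible in PIC144-3, PC134-0 and PC326-1, and Cntn4 is visible mainly in IDH1 WT lines.

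Genes near the 7 were examined next, since Cntn3, Cntn6 and Cntn4 lie along chromosome 6 with the L1 family gene Chl1 between Cntn3 and Cntn6. Chl1, whose product is a partner of contactins in neurite growth, was at 16.7, 10.2, 8.01 and 20.6 FPKM in PIC144-1, PIC144-3, PIC496-3 and PIC496-4, against 30.6, 25.3 and 22.8 FPKM in PC134-0, PC308-1 and PC326-1. Its lines did not overlap between genotypes, but the log2 difference of -0.98 (SE 0.32) missed the threshold over all genes (limma adjusted p = 0.324). Trnt1, a tRNA nucleotidyltransferase, and Crbn, a subunit of a ubiquitin ligase, start within 1 Mb of the end of Cntn4 and had log2 differences of 0.29 and -0.30, with overlapping lines (limma adjusted p = 0.693 and 0.491). Farther on, the leucine-rich repeat gene Lrrn1 was at 11.04, 19.5, 27.6 and 1.46 FPKM in PIC144-1, PIC144-3, PIC496-3 and PIC496-4, against 79.2, 39.0 and 54.8 FPKM in PC134-0, PC308-1 and PC326-1. Its lines did not overlap either, and its log2 difference of -2.39 (SE 0.84) did not pass (limma adjusted p = 0.347). Of all genes tested, 6.43% were lower in IDH1 mutant lines with no overlap. Over 21 libraries with the line as a random effect, Chl1 and Lrrn1 passed (limma adjusted p = 0.0205 and 0.0108). That random-effect fit used 1 correlation within lines for all genes, so genes with a wider spread between lines can pass too easily. Under the alternatives as a whole the limma adjusted p reached 0.835 for both genes.

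Within 1 Mb of Igsf21, 22 of 63 genes were tested, 12 with negative and 10 with positive differences and a median of -0.03, where the median of all tested genes was 0.01. The nearest tested genes were Aldh4a1, an enzyme of proline breakdown, on the left (log2 difference 0.32) and Arhgef10l, which encodes a guanine nucleotide exchange factor, on the right (-0.35), with limma adjusted p of 0.491 and 0.558. Mfap2, of extracellular microfibrils, was the only neighbour that passed, with a log2 difference of -3.67 and a limma adjusted p of 0.00437. It was at 0.430 ± 0.212 FPKM in IDH1 mutant lines (SD, n = 4), against 11.2 ± 2.19 FPKM in IDH1 WT lines (SD, n = 3). Mfap2 lies 763634 bases to the right of Igsf21, on the side of the Igsf21 promoter. The call of Mfap2 ended without PC134-0 (limma adjusted p = 0.131) and without PC326-1 (0.0564). The genes between Igsf21 and Mfap2 that were tested had log2 differences from -0.59 to 0.20. Whether a shared segment plays a part in these levels was not tested.

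The other contactin genes had no neighbour that passed. Cntn1 had 6 tested neighbours with a median of -0.03, the nearest being Lrrk2, a kinase, and Pdzrn4, a ubiquitin ligase, with log2 differences of -0.04 and 0.04. Cntn2 had 17 with a median of -0.03, the nearest being Tmem81 (-0.05) and Nfasc, the L1 family gene of the node of Ranvier (-0.73). Cntn5 had 1, Arhgap42, which encodes a GTPase activating protein, at -0.03. By the table's coordinates no gene overlapping Igsf21 or a contactin gene was above 0.127 FPKM in a line.

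**Figure D3:**
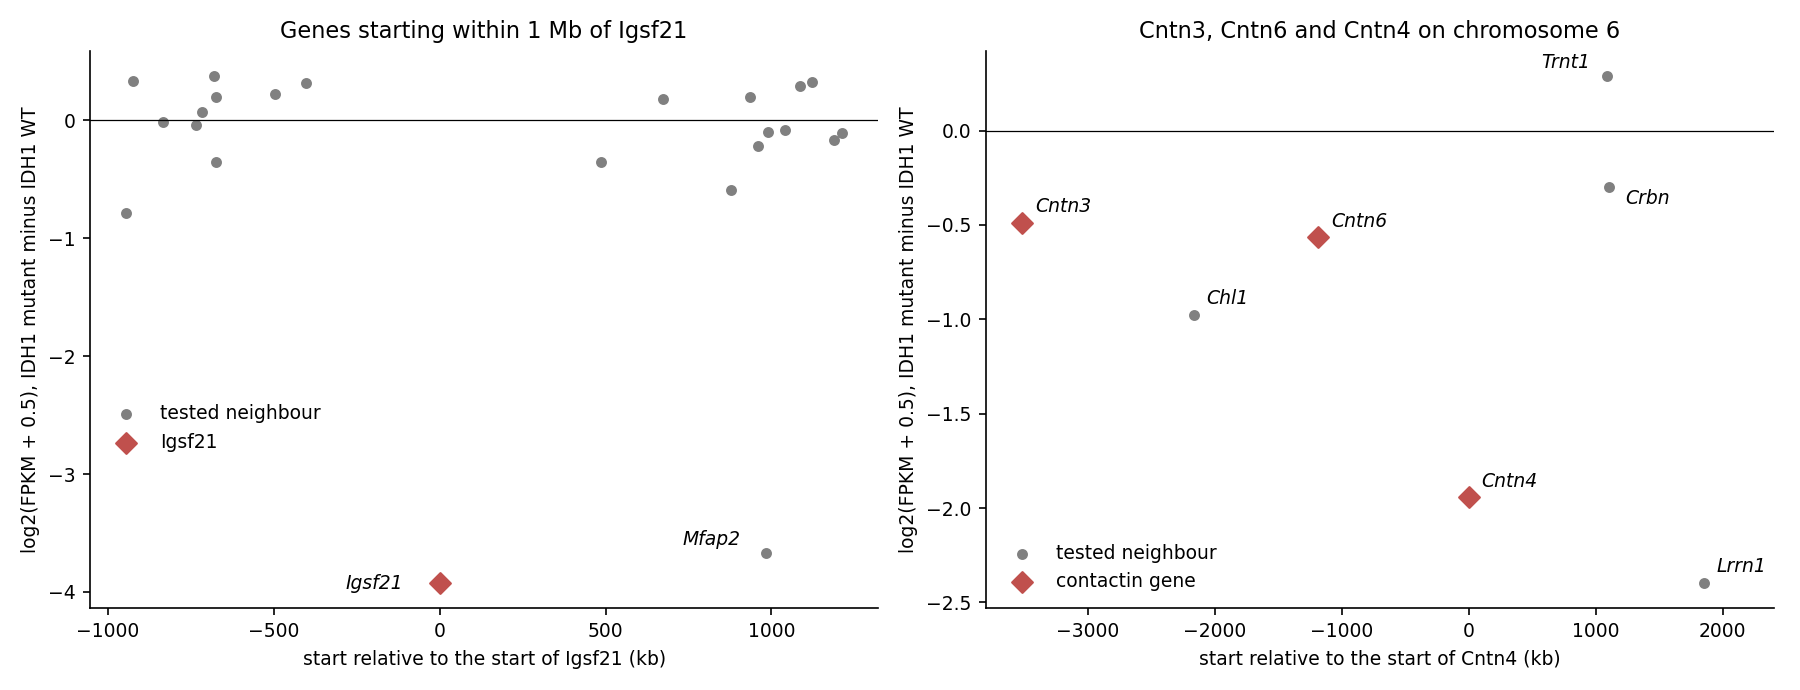
Difference of log2(FPKM + 0.5) between IDH1 mutant and IDH1 WT lines for tested genes around Igsf21 (left) and around Cntn3, Cntn6 and Cntn4 (right), against the distance of gene starts in kb; diamonds are the described genes, drawn from line means also where below the filter. Igsf21 and Mfap2 lie near -4 among neighbours near 0, and on chromosome 6 Trnt1 and Crbn lie nearest to 0.

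Partners and relatives of the 7 genes were taken from 6 lists of 62 genes chosen by function, of which 61 were in the table and 40 were tested. Of the 40, 33 had negative and 7 positive differences, with a median of -0.72, against a median of 0.01 and 49.2% negative among all genes tested. None passed the limma test over all genes (smallest adjusted p = 0.104), where 0.120% of all genes did. At an unadjusted p under 0.05, 11 were lower and 1 was higher, where 6.70% and 6.09% of all genes were. Lines did not overlap in 5 of the 40 (Chl1, Nlgn2, Nlgn3, Cadm2 and Cadm4), all lower in IDH1 mutant lines. Of all genes tested, 6.43% were lower in IDH1 mutant lines with no overlap. In limma voom on recovered fragments, chosen after seeing the data, 1 passed, Nlgn3, and with the line as a random effect over 21 libraries 10 passed. The random-effect fit, with 1 correlation within lines for all genes, called 552 of the 13379 genes tested. The lists were chosen with earlier results known, so their direction is not independent evidence.

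Among contactin-associated proteins, only Cntnap1, the paranodal partner of contactin 1, was tested. It was at 9.31 ± 6.17 FPKM in IDH1 mutant lines, against 6.64 ± 0.803 FPKM in IDH1 WT lines (SD, n = 4 and 3), and its difference of 0.29 did not pass (limma adjusted p = 0.755). Cntnap4 was below the filter, at most 1.21 FPKM among IDH1 mutant lines (PIC496-3) and 1.75 FPKM among IDH1 WT lines (PC134-0), and Cntnap2, Cntnap3, Cntnap5a, Cntnap5b and Cntnap5c were under 0.1 FPKM in every line. Of the contactin ligands and receptors, 11 of 12 tested had negative differences, with a median of -0.63. App, the amyloid precursor protein, was at 36.9 ± 6.01 FPKM in IDH1 mutant lines, against 55.4 ± 9.81 FPKM in IDH1 WT lines (limma adjusted p = 0.319). Tnc, tenascin C, was the most abundant of this list at 142 ± 87.6 FPKM in IDH1 mutant lines, against 159 ± 30.9 FPKM in IDH1 WT lines. Ligands of contactin 4 and of contactin 1 were thus measured in both genotypes.

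Neurexins are the presynaptic receptors that Igsf21 and the neuroligins bind. Nrxn2, which encodes the partner of IGSF21, was at 16.2 ± 7.96 FPKM in IDH1 mutant lines, against 14.3 ± 4.66 FPKM in IDH1 WT lines (limma adjusted p = 0.930). Among the other neurexin-binding genes, 5 of 6 tested had negative differences, with a median of -0.77. Nlgn3, neuroligin 3, was at 0.0297, 0.0169, 0.0474 and 0.0126 FPKM in PIC144-1, PIC144-3, PIC496-3 and PIC496-4, against 1.08, 2.00 and 0.798 FPKM in PC134-0, PC308-1 and PC326-1. This pattern, low in all IDH1 mutant lines, resembles that of Cntn4, but the log2 difference of -1.71 (SE 0.26) missed the threshold over all genes (limma adjusted p = 0.104, and 0.000327 to 0.489 under the alternatives, 4 of which it passed). Nlgn2, neuroligin 2 of inhibitory synapses, was at 25.9 ± 8.24 FPKM in IDH1 mutant lines, against 40.1 ± 4.24 FPKM in IDH1 WT lines. Its lines did not overlap, and its difference did not pass (limma adjusted p = 0.385). Clstn1, calsyntenin 1, was the most abundant at 82.2 ± 28.7 FPKM in IDH1 mutant lines, against 73.3 ± 9.22 FPKM in IDH1 WT lines.

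The IgLON genes encode GPI-anchored adhesion proteins like the contactins, and all 4 tested had negative differences, with a median of -0.98. Lsamp was at 1.79 ± 1.68 FPKM in IDH1 mutant lines, against 5.75 ± 2.58 FPKM in IDH1 WT lines, and Iglon5 at 3.84 ± 3.08 FPKM in IDH1 mutant lines, against 7.94 ± 1.04 FPKM in IDH1 WT lines (limma adjusted p = 0.363 and 0.369). Of the other immunoglobulin adhesion genes, 12 of 15 tested had negative differences, with a median of -0.86. Cadm2, a synaptic adhesion gene, was at 0.586 ± 0.262 FPKM in IDH1 mutant lines, against 3.86 ± 3.49 FPKM in IDH1 WT lines, and Cadm4, a glial member of the same family, at 49.8 ± 22.8 FPKM in IDH1 mutant lines, against 109 ± 7.36 FPKM in IDH1 WT lines, with no overlap of lines in either (limma adjusted p = 0.281 and 0.351). Cadm1 ran the other way, at 7.44 ± 0.680 FPKM in IDH1 mutant lines, against 4.17 ± 2.10 FPKM in IDH1 WT lines (limma adjusted p = 0.320).

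**Figure D4:**
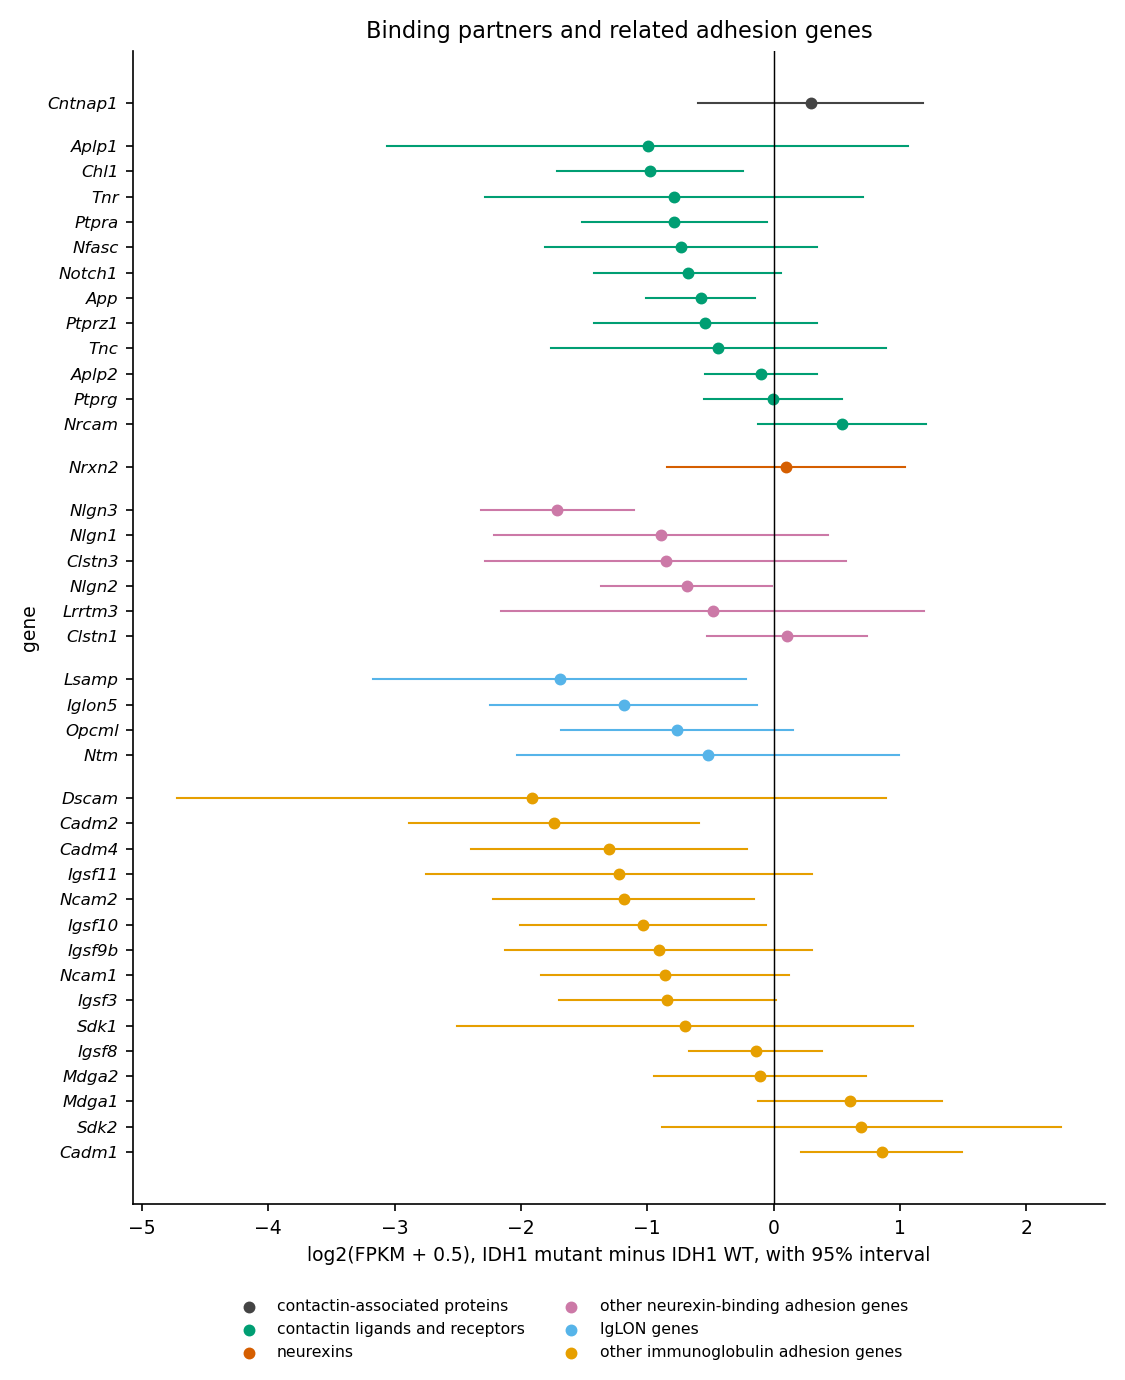
Difference of log2(FPKM + 0.5) between IDH1 mutant and IDH1 WT lines for the tested partner and relative genes, 1 of the 40 not shown, with 95% intervals not adjusted for the number of genes, coloured by list. Most points lie left of 0, with Nlgn3 at -1.71 and Cadm1 at 0.85.

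Genes made by other brain cells were measured beside these levels. Of 8 neuronal markers, 5 were tested, all with negative differences, where 49.2% of all genes tested had one. None passed the limma test, as against 0.120% of all genes. At an unadjusted p under 0.05, 2 were lower, Tubb3 and Syp, where 6.70% of all genes were. Syp, a synaptic vesicle gene, was at 0.354 ± 0.221 FPKM in IDH1 mutant lines, against 1.27 ± 0.219 FPKM in IDH1 WT lines, and Map2, a dendritic cytoskeleton gene, was at 24.1 ± 7.05 FPKM in IDH1 mutant lines, against 35.8 ± 7.24 FPKM in IDH1 WT lines, with no overlap of lines in either. Among all genes tested, 6.43% were lower in IDH1 mutant lines with no overlap. Tubb3, a neuronal tubulin, had a log2 difference of -1.74 with overlapping lines. Gap43 and Syt1 had log2 differences of only -0.53 and -0.14 (limma adjusted p = 0.813 and 0.957). The mean of Syt1 was higher in IDH1 mutant lines, at 2.28 FPKM against 1.53 FPKM in IDH1 WT lines. The summed level of all 8 was 37.5 to 98.02 FPKM in IDH1 mutant lines, against 57.6 to 125 FPKM in IDH1 WT lines, mostly Map2, Tubb3 and Gap43, while Snap25 was at most 0.1003 FPKM and Rbfox3 at most 0.419 FPKM in any line. The part of neuronal gene expression in the levels of Igsf21, Cntn4 and Cntn6 was not tested. Microglial markers summed to 0.0748 to 0.216 FPKM in IDH1 mutant lines, against 0.282 to 1.37 FPKM in IDH1 WT lines. Ptprc, Csf1r, Aif1 and Cx3cr1 were under 0.1 FPKM in every line, while P2ry12, below the filter, was at 0.0230 to 0.160 FPKM in IDH1 mutant lines, against 0.226 to 1.36 FPKM in IDH1 WT lines, so its lines did not overlap. The part of P2ry12-expressing cells in the levels of Igsf21, Cntn4 and Cntn6 was not tested. Mature oligodendrocyte markers summed to at most 0.771 FPKM in IDH1 mutant lines, against 1.22 FPKM in IDH1 WT lines, and Mag and Mobp were under 0.1 FPKM in every line. Endothelial markers summed to 0.104 to 2.28 FPKM in IDH1 mutant lines, against 0.482 to 2.29 FPKM in IDH1 WT lines. Pecam1, Cdh5 and Cldn5 were under 0.1 FPKM in every line, while Flt1 reached 2.15 FPKM in PIC144-1 and 1.60 FPKM in PC134-0 and Kdr reached 0.309 FPKM in PIC144-3 and 0.728 FPKM in PC326-1.

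Oligodendrocyte progenitor genes summed to 516 to 1174 FPKM in IDH1 mutant lines, against 697 to 1072 FPKM in IDH1 WT lines, nearly all of it Olig1 and Olig2. Both were highest in PIC496-3, at 719.8 and 419 FPKM. Sox10 was below the filter, at 0 in PIC144-3 and PIC496-4 and highest in PIC144-1 at 1.18 FPKM. Pdgfra was at 9.79, 5.19, 5.74 and 0.436 FPKM in PIC144-1, PIC144-3, PIC496-3 and PIC496-4, against 12.4, 104 and 11.7 FPKM in PC134-0, PC308-1 and PC326-1. Its lines did not overlap, where 6.43% of all genes tested were lower in IDH1 mutant lines with no overlap. The log2 difference of Pdgfra, -2.56, missed the threshold (limma adjusted p = 0.373). Cspg4 was at 5.87 to 30.1 FPKM in IDH1 mutant lines, against 25.3 to 48.9 FPKM in IDH1 WT lines. The astrocyte list summed to 224 to 404 FPKM in IDH1 mutant lines, against 238 to 341 FPKM in IDH1 WT lines. Nearly all of this was Aldoc and Slc1a3. Gfap was at most 0.186 FPKM in any line, Aqp4 at most 1.57 FPKM (PIC496-4) and Aldh1l1 at most 7.49 FPKM (PC308-1). What part these programmes have in the level of Cntn1 was not tested.

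The genes with patterns most like each of the 4 filtered genes were found by Pearson's r of log2(FPKM + 0.5) over the 7 line means, given as a description. For Igsf21 they were Zfp383 (r = 0.987), Mfap2 (0.985), Nat8f1 (0.983), Hunk (0.982) and Cers3 (0.981), and for Cntn4 they were Mfap2 (0.988), Cers3 (0.985), Tceanc2 (0.985), Smarca1 (0.974) and Nlgn3 (0.972). These 2 sets share Mfap2 and Cers3, but Igsf21 and Cntn4 were chosen for the same pattern, so shared genes follow from the choice. A high r does not mean a difference of like size. Zfp383 was at 3.32 ± 0.241 FPKM in IDH1 mutant lines, against 5.66 ± 0.142 FPKM in IDH1 WT lines (SD). For Cntn1 they were Dennd1b (0.985), Nova1 (0.985), Cyfip2 (0.984), Zfp697 (0.966) and Dcc (0.960). Nova1, a neuronal splicing factor, was at 21.9 FPKM in PC308-1 and 3.90 FPKM in PIC496-4, the highest and lowest lines of Cntn1. For Cntn3 they were Arhgap20 (0.979), Glt8d1, Rabgef1 and Tent5c (0.977 each) and Per1 (0.960). Arhgap20, which encodes a GTPase activating protein, was at 1.75 FPKM in PIC144-3 and at most 0.0609 FPKM in the other IDH1 mutant lines, the split seen in Cntn3. Nova1 and Arhgap20 were picked by r with Cntn1 and Cntn3 over these same lines, so their shared patterns follow from the choice.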

How the data were processed

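The deposited values are FPKM of 54532 genes in 21 libraries, made by the authors per the file headers. Per the submitters' processing notes the aligner was HISAT2 and the build mm39. No source used here gives the read counter, annotation release or use of strand. The coordinates of all 7 genes are those of GENCODE M21 (GRCm38), so GRCm38 is used. Fragments per gene were recovered from FPKM and gene length: with 1 constant per library, 100% of values under 1000 fragments came out whole within 0.05. No libraries of a line were duplicates, with chi-square values between them of 3.79 to 26.9 per gene. The highest values, 26.9 and 22.8, were those of PIC496-4 library 2 against libraries 1 and 3 of that line. Libraries 1 and 3 of PIC496-4 had 4.17 between them.

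Tests used R 4.3.3 and limma 3.58.1 (eBayes with trend and robust, Benjamini-Hochberg adjusted p under 0.05 over all genes). Genotypes were compared on log2(FPKM + 0.5) of line means, for genes of at least 0.5 FPKM in at least 3 lines. Lines of a genotype were compared by an F test over libraries, for genes of at least 0.5 FPKM in at least 1 line. Neighbours start within 1 Mb of a gene. Fits were tested on simulated data. The genes, lists and named genes were chosen with earlier results of these data known: of each list those that passed or the 2 with the smallest p, the most abundant gene, the nearest tested coding neighbours, and the 5 genes of highest r. Crbn, Lrrn1, Mfap2 as a neighbour, and the levels of single markers were picked after their values were seen. Among the listed genes, 1 that the rule names is not reported here. Mouse promoter sequences are from RefSeq. Figures used matplotlib 3.10.9. Intervals at 95% from limma cover the spread between lines.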

Additional observations from a re-analysis of the deposited data

Results flagged for a closer look

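In Cntn3 the IDH1 mutant line PIC144-3 stood far from the other IDH1 mutant lines, at 2.42 FPKM against 0.0108 to 0.0375 FPKM in PIC496-4, PIC496-3 and PIC144-1. The gap to the nearest line was 0.989 of the whole range of the 4 lines. For normally distributed values chance marks about 1 group in 20 in this way, and 7 genes were examined. FPKM with most lines near 0 are not such values, so that rate may not hold here. All 3 libraries of PIC144-3 carried the level, with 262 to 327 fragments each.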

How the results depend on the processing

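The number of genes called between genotypes, 16, was 3 with no filter, 8 with a mean FPKM of at least 2, 4 with lines sharing a number averaged, 5 without both PIC496 lines and 5 in limma voom, the last 2 chosen after seeing the data. With 1 correlation within lines for all genes, it was 552 over 21 libraries with the line as a random effect and 440 with the replicate block added. It ranged from 0 to 29 when a line was left out, with 0 without PC134-0 and without PC326-1, and from 1 to 48 with the same genes kept. The number of partner and relative genes called, 0, was 1 after rescaling to TPM and 1 in limma voom, Nlgn3 in both, 10 with the line as a random effect and 8 with the replicate block. The cause was not tested. The difference of Cntn1 was -1.15 to 0.13 without 1 line, positive without PC308-1, that of Cntn3 was 0.16 without both PIC496 lines, and that of Cntn5, at background, was -0.0052 to 0.037 without 1 replicate, negative without replicate 2. Between lines, 1 gene was called among the IDH1 mutant lines without PIC144-3, against 2, since Cntn3 then failed the filter. With the replicate block the calls between lines were 2 and 4, the same numbers as without it. Deviations of same-numbered libraries had r = -0.124 to 0.292 over 63 pairs between lines, with a median of 0.0149. Those of different-numbered libraries had r = -0.277 to 0.207 over 126 pairs, with a median of -0.0107. Values this close do not settle whether the numbers pair the samples. Depth limits Cntn2, Cntn5 and Cntn6 most.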
